A study of Mus musculus with 4 samples.

Results

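A set of 10 genes of the collagen fibril was followed through the cells of mouse hearts with and without myocardial infarction. They were Col1a1, Col1a2, Col3a1, Col5a1, Col5a2 and Col5a3, which encode chains of the fibril-forming types I, III and V, the fibril-associated Col12a1, Col14a1 and Col16a1, and Col8a1, a short-chain network collagen. Members were taken by gene symbol from the 32287 features of the deposited single-cell matrices, and all 10 were present with UMIs (unique molecular identifiers, each counting 1 captured transcript) in fibroblasts of every library. Between 94.96% and 96.6% of their UMIs in a library lay in cells classed as fibroblasts.

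Fibrillar procollagen chains wind into triple helices in the endoplasmic reticulum, are trimmed after secretion and then assemble into cross-linked fibrils. Type I and type III collagen make up the bulk of the cardiac interstitium, type V chains sit inside the fibril and set how it begins and how thick it grows, and types XII, XIV and XVI lie on or near its surface. In the heart the interstitial fibroblast is the main source of these chains, and in an infarct it lays down the scar.

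The study deleted the transcription factor gene Tcf21 in cardiac fibroblasts with the tamoxifen-inducible recombinase Tcf21-MerCreMer. The control hearts carried Tcf21-MerCreMer, and the hearts labelled deletion carried it with floxed Tcf21. All mice received tamoxifen, and hearts of each genotype were taken without injury or 3 days after myocardial infarction. Live nucleated cells were sorted from digested hearts and sequenced with a 3' droplet kit, with 1 library for each of the 4 groups. The labels name neither the floxed part of Tcf21 nor the number of animals behind a library. With 1 library a group no difference was tested, and no p-value is given. Intervals in brackets are exact 95% intervals, which cover counting error only and not the spread between animals.

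The libraries held 9149 to 11541 barcodes and 55710468 to 129704045 UMIs. After filtering, fibroblasts numbered 1879 in the uninjured control, 1984 in the uninjured deletion-labelled library, 920 in the infarcted control and 1391 in the infarcted deletion-labelled library. Their median depth was 10634, 13534, 31777 and 20162 UMIs in the same order, which is the order used throughout. Tcf21 stood at 95.1, 145, 22.4 and 32.8 CPM (UMIs scaled to a total of 1000000) in fibroblasts, so the libraries labelled deletion held more, not fewer, Tcf21 transcripts than their controls. A 3' tag need not lie in the deleted part, and the value therefore does not check the genotype. Fibroblast markers were present in all 4 sums (Dcn 15383, 16562, 1571 and 4782 CPM), with the 12 markers together at 40275, 42866, 5934 and 14560. Levels are taken over the summed cells of a class or state. A gene was called higher or lower when this level differed by at least 1.5-fold. Genes on the opposite strand overlap Col5a1, Col5a3, Col12a1 and Col14a1 in the GENCODE annotation, and whether counting used strand is not given in the sources used here. Between genes, levels are counts of 3' ends, 1 per molecule whatever its length, and capture can differ from gene to gene.

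RefSeq promoter windows were found for 6 of the 10 genes (GRCm38.p6). They were searched on both strands of the 250 bases before the start for the CCAAT box by its letters, the TATA box as TATAAA, and the GC box as GGGCGG. No match overlapped another. The 130 bases before the start are shown for 4 genes whose levels went different ways after infarction, with matches in capitals (a GC box on the opposite strand reads as CCGCCC), the start following the last base.
Col1a2, chr6:4505488-4505617, plus strand: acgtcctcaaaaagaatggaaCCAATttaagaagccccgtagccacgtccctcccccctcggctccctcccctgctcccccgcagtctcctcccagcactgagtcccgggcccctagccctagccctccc
Col3a1, chr1:45311408-45311537, plus strand: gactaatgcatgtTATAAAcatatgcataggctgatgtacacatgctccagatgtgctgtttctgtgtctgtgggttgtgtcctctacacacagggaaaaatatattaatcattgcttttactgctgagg
Col5a1, chr2:27886295-27886424, plus strand: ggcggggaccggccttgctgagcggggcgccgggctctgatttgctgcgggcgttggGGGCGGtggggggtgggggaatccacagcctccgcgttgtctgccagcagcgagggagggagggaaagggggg
Col5a3, chr9:20815068-20815197, minus strand: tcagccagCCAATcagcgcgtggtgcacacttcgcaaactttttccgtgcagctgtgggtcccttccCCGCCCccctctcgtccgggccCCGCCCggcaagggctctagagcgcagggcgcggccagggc
A CCAAT lay 109 bases before the start of Col1a2, 122 before Col5a3 and 113 before Col16a1. Col3a1 alone of the 6 windows held TATAAA, 117 bases before its start, and it held no GC box. The other 5 windows each held at least 1 GC box, and Col8a1 held 4. Of 32851 RefSeq promoter windows of the same length, 33.8% held a CCAAT box, 12.4% a TATA box and 32.7% a GC box. These matches describe the letters only.

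Both chains of type I collagen were higher after infarction in both genotypes. Col1a1, the alpha 1 chain (chr11:94936224-94953042, plus strand, GRCm38.p6), stood at 1474, 1523, 3486 and 3586 CPM in fibroblasts. Both infarcted libraries lay above both uninjured ones, 2.36-fold in the control (2.33 to 2.39) and 2.36-fold in the deletion-labelled pair (2.33 to 2.38). Col1a2, the alpha 2 chain, stood at 1992, 2168, 3890 and 4307, a log2 difference of 0.97 in the control pair and 0.99 in the deletion-labelled pair. The increase was therefore of like size in both genotypes for both chains. Counted per cell, Col1a1 went from 16.1 to 114 UMIs in the control and from 21.4 to 87.2 in the deletion-labelled pair, and this measure also carries the greater depth of the infarcted libraries.

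**Figure D1:**
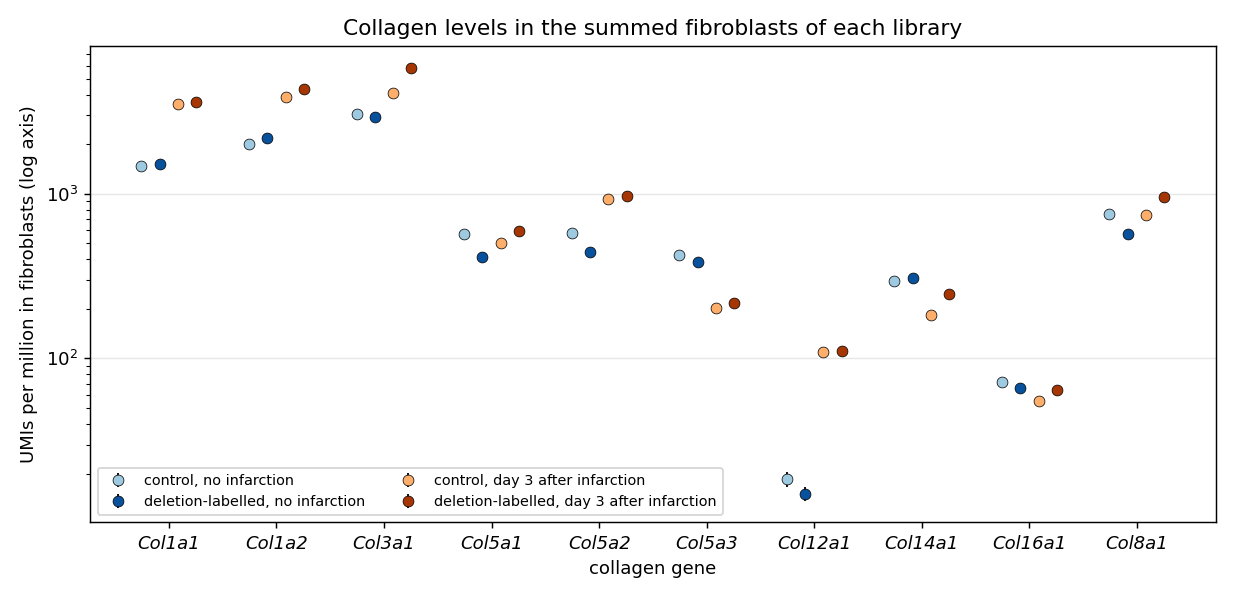
Level of each collagen gene in the summed fibroblasts of the 4 libraries, in CPM on a log axis, 1 point per library, with bars (mostly smaller than the points) for the 95% counting interval. Col1a1, Col1a2 and Col12a1 lie higher in both infarcted libraries (Col12a1 at 110 and 111 against 18.4 and 15.1), and Col5a3 lies lower in both (203 and 218 against 422 and 385).

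Col3a1, the single chain of type III collagen, stood at 3048, 2912, 4071 and 5802. It had the most UMIs of the 10 in the summed fibroblasts of each library, though not in cycling cells of the infarcted control, where Col1a2 had 33008 against 30561. The infarcted deletion-labelled library was the highest of the 4, at 1.99-fold its uninjured counterpart (log2 0.99), whereas the control pair differed by 1.34-fold (log2 0.42), short of the 1.5-fold limit. With scaling by the median of gene ratios the control pair passed it (log2 0.77, against 1.25 in the deletion-labelled pair).

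The 3 chains of type V collagen did not move together. Col5a2, on chromosome 1 next to Col3a1 in a tail-to-tail pair 24614 bases apart, stood at 575, 442, 923 and 972 and was called higher in both genotypes (log2 0.68 and 1.14). Col5a1 stood at 568, 413, 504 and 589, so that the uninjured deletion-labelled library was the lowest and no infarction difference reached 1.5-fold (log2 -0.17 and 0.51), though that of the deletion-labelled pair did with the other scaling (0.77). Col5a3, the alpha 3 chain, found in fewer tissues, stood at 422, 385, 203 and 218. It was called lower in both genotypes, by 2.08-fold in the control and 1.76-fold in the deletion-labelled pair.

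Among the fibril-associated genes, Col12a1 (chr9:79598991-79718831, minus strand) showed the greatest difference of the 10. Its level was 18.4, 15.1, 110 and 111, a 5.96-fold increase in the control (5.36 to 6.65) and 7.34-fold in the deletion-labelled pair (6.63 to 8.14). Cells with at least 2000 UMIs were thinned to 2000, which left out 6, 7, 13 and 25 shallower fibroblasts. Then 3.15%, 1.82%, 15.4% and 15.7% of fibroblasts held a Col12a1 UMI (10.4%, 8.72%, 73.5% and 56.1% unthinned). In neutrophils, which should lack the gene, the thinned share was 0.14% and 0.44% in the infarcted libraries. Their median depths of 2157 and 2264 UMIs lay near the limit of 2000, and the shallower neutrophils were left out of this share. Col14a1 went the other way, at 293, 307, 184 and 246, and was called lower in the control pair only (log2 -0.68 against -0.32). Col16a1 stood at 71.7, 66.3, 55.5 and 64.4 with no call. Col8a1 stood at 755, 570, 738 and 952, with log2 differences of -0.03 in the control pair and 0.74, called higher, in the deletion-labelled pair.

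In the control pair 4 of the 10 genes were called higher (Col1a1, Col1a2, Col5a2, Col12a1) and 2 lower (Col5a3, Col14a1), where 25.7% of all 14846 genes compared were higher and 40.1% lower. In the deletion-labelled pair 6 were higher, with Col3a1 and Col8a1 added, and 1 lower (Col5a3), against 21.2% and 32.7% of all genes. The median log2 difference of the 10 was 0.19 in the control and 0.86 in the deletion-labelled pair, where that of all genes was -0.28 and -0.20. The counts were the same when fibroblasts led by leukocyte genes, present only after infarction (97 and 70 cells), were left out (24.4% and 41.1% of genes in the control, 19.9% and 33.0% in the deletion-labelled pair). Scaling by the median of gene ratios in place of total UMIs raised every infarction difference, by 0.35 log2 in the control and 0.25 in the deletion-labelled pair. Under it Col14a1 was no longer called lower in the control (log2 -0.33), Col5a3 was no longer called lower in the deletion-labelled pair (-0.56), and the control differences of Col5a1 and Col8a1 became 0.18 and 0.32. Col3a1 in the control and Col5a1 in the deletion-labelled pair were then called higher (both 0.77), which makes 5 and 7 genes higher. The shares of all genes given above are for scaling by total UMIs, and those under the other scaling were not computed. Markers of mural cells summed to 147, 206, 1747 and 1209 CPM in the same fibroblast sums, with Acta2 alone at 19.8, 27.7, 1153 and 760. Acta2 also stands in the marker list of activated fibroblasts used here, so the sum does not measure mural cells alone. The part of mural cells in the collagen differences was not tested.

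**Figure D2:**
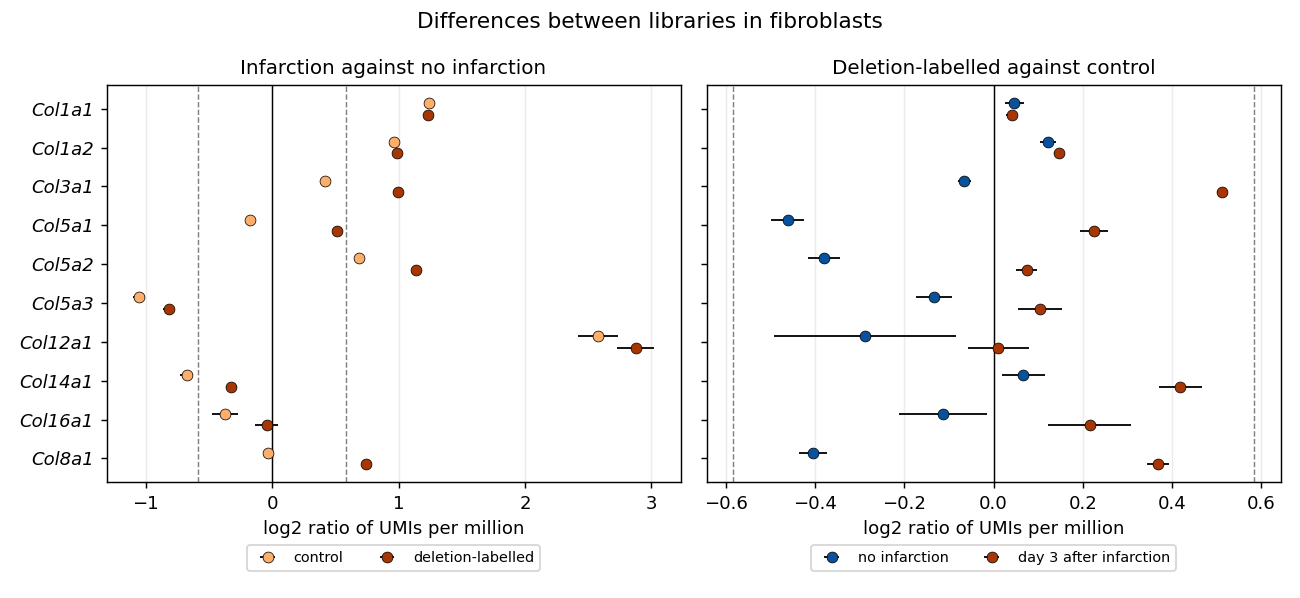
Log2 ratio of CPM in fibroblasts for each collagen gene, left for infarction against no infarction in each genotype and right for deletion-labelled against control in each condition, with bars for the 95% counting interval and dashed lines at 1.5-fold. Col12a1 stands farthest right on the left panel (2.58 and 2.88), and every point of the right panel lies inside the dashed lines.

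Between genotypes none of the 10 genes reached 1.5-fold in fibroblasts, either without infarction (10.1% of all genes higher and 7.18% lower) or after it (13.2% and 4.69%, or 14.0% and 4.87% without the cells led by leukocyte genes). Without infarction the greatest differences were lower levels in the deletion-labelled library for Col5a1 (log2 -0.46), Col8a1 (-0.40) and Col5a2 (-0.38), whereas Col1a1 differed by 0.05 (0.03 to 0.07). After infarction the greatest were higher levels of Col3a1 (0.51), Col14a1 (0.42) and Col8a1 (0.37). Col1a1 again differed by 0.04. In the infarcted libraries the deletion-labelled sum held 370 resident and 109 adventitial fibroblasts where the control held 17 and 4, so the mixes of cell states differed.

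Fibroblasts were divided into 4 states named by their markers and the cells led by leukocyte genes. The states were Smoc2-type resident cells, Pi16-type adventitial cells (a vessel-associated population known for Pi16 and Dpp4), activated cells and cycling cells. Activated and cycling cells came from the same cluster, which as a whole carried Postn, Cthrc1, Tnc and Lox. Its cells that were neither cycling nor led by leukocyte genes were called activated, with no further check of these markers. Because clustering used all variable genes, collagens among them, differences between states are descriptions. Resident cells numbered 1496, 1604, 17 and 370, adventitial cells 376, 371, 4 and 109, activated cells 7, 4, 578 and 654, and cycling cells 0, 5, 224 and 188. Only sums of at least 50 cells are described. The border between resident and adventitial cells moved with the processing settings, as given in the closing section.

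The resident and adventitial states of uninjured hearts differed by over 1.5-fold in Col5a3, Col12a1 and Col14a1 and by less in the other 7 genes. The share of all genes that differed as much between these states was not computed. Adventitial cells held less Col5a3 than resident cells, at 209 against 487 in the control and 176 against 449 in the deletion-labelled library (log2 -1.22 and -1.35). They held more Col12a1, at 41.5 against 11.2 and 46.9 against 5.84, and more Col14a1, at 412 against 257 and 514 against 247. For Col1a1, Col1a2 and Col3a1 the same comparison lay between log2 -0.34 and 0.08. Within the resident state Col12a1 was the only gene of the 10 called different between uninjured genotypes, lower in the deletion-labelled library (log2 -0.93), on 125 against 173 UMIs. The background there was 8.28% of genes higher and 8.41% lower. Within the adventitial state no gene of the 10 was called, where 10.2% of genes were higher and 6.46% lower.

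**Figure D3:**
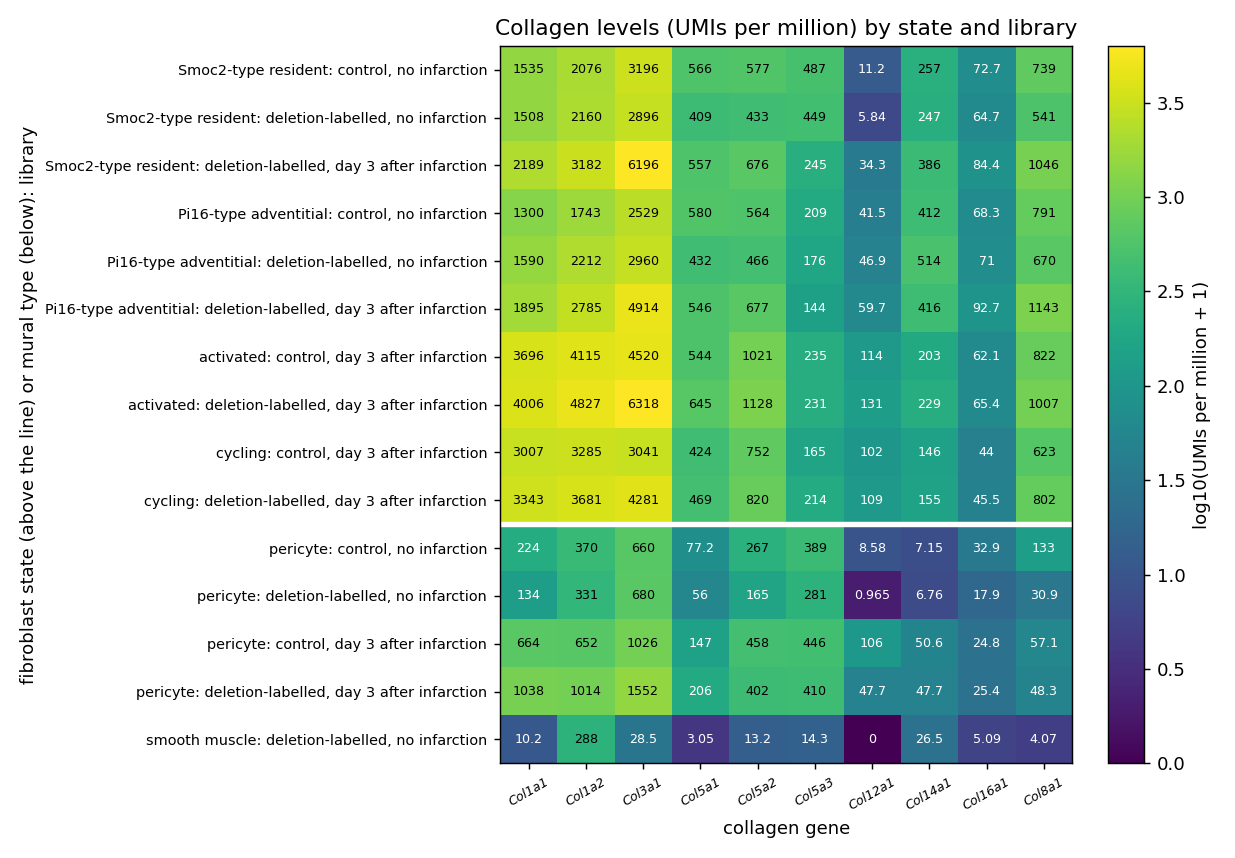
Levels of the 10 genes (columns) in CPM, printed in each cell and coloured by log10 of the level plus 1, for fibroblast states above the white line and mural types below it, 1 line per library with at least 50 cells. Of the sums drawn, which leave out the cells led by leukocyte genes (Col1a1 at 3892 and 4799), activated and cycling cells are highest in Col1a1 (3007 to 4006), resident cells of the infarcted deletion-labelled library are high in Col3a1 (6196), and smooth muscle cells hold Col1a2 (288) with little of the others.

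The resident cells that remained in the infarcted deletion-labelled heart differed from uninjured resident cells of that genotype as well. Of the 10 genes 5 were called higher (Col12a1 by log2 2.55, Col3a1 1.10, Col8a1 0.95, Col14a1 0.65 and Col5a2 0.64) and Col5a3 lower (-0.88), against 8.36% of genes higher and 15.7% lower. Col3a1 there reached 6196 CPM from 2896, close to the 6318 of activated cells in the same library. Col1a1, by contrast, was 2189 in these resident cells and 4006 in activated cells (log2 0.87), and Col12a1 was 34.3 and 131 (1.93). Col14a1 was lower in the activated cells, at 229 against 386. In adventitial cells of that heart 2 of the 10 genes were called higher, Col8a1 (log2 0.77) and Col3a1 (0.73), and none lower, against 6.28% and 17.6% of genes.

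Cycling cells held less than activated cells of every one of the 10 genes in both infarcted libraries, by log2 -0.57 (Col3a1) to -0.16 (Col12a1) in the control and -0.57 (Col14a1) to -0.11 (Col5a3) in the deletion-labelled library. The share of all genes lower in cycling cells was not computed, so this count has no background. Within activated and within cycling cells the genotypes stayed inside 1.5-fold for all 10 genes. The highest difference was again that of Col3a1, at 4520 against 6318 in activated cells (log2 0.48) and 3041 against 4281 in cycling cells (0.49). The backgrounds were 7.66% of genes higher and 4.21% lower in activated cells, and 6.49% and 5.30% in cycling cells.

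Collagen transcripts were unevenly spread over the infarct fibroblasts. The cluster of activated and cycling cells was divided again into subclusters, of which 11 held at least 25 cells in each infarcted library. The 10 genes together took 2.38% of UMIs in the control and 2.397% in the deletion-labelled library in the subcluster led by Thbs4, Cilp and Apod, the first a thrombospondin of tendon and cartilage. In the subcluster led by Tagln, Mcam and Aspn, with mural markers at 3401 and 2711 CPM, they took 2.15% and 2.42%. In the subcluster led by Thbd, Gprc5a and Has1 they took 0.509% and 0.466%. The lowest was led by Chchd10 and Gdf15, a stress-induced cytokine, at 0.169% and 0.423%, and its median cell held 0.043% and 0.046%. The subclusters led by Thbd and by Chchd10 counted as activated cells. Postn stood at 125 and 90.5 CPM in the former and 87.6 and 289 in the latter, against 712 and 1416 in all fibroblasts of these libraries.

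**Figure D4:**
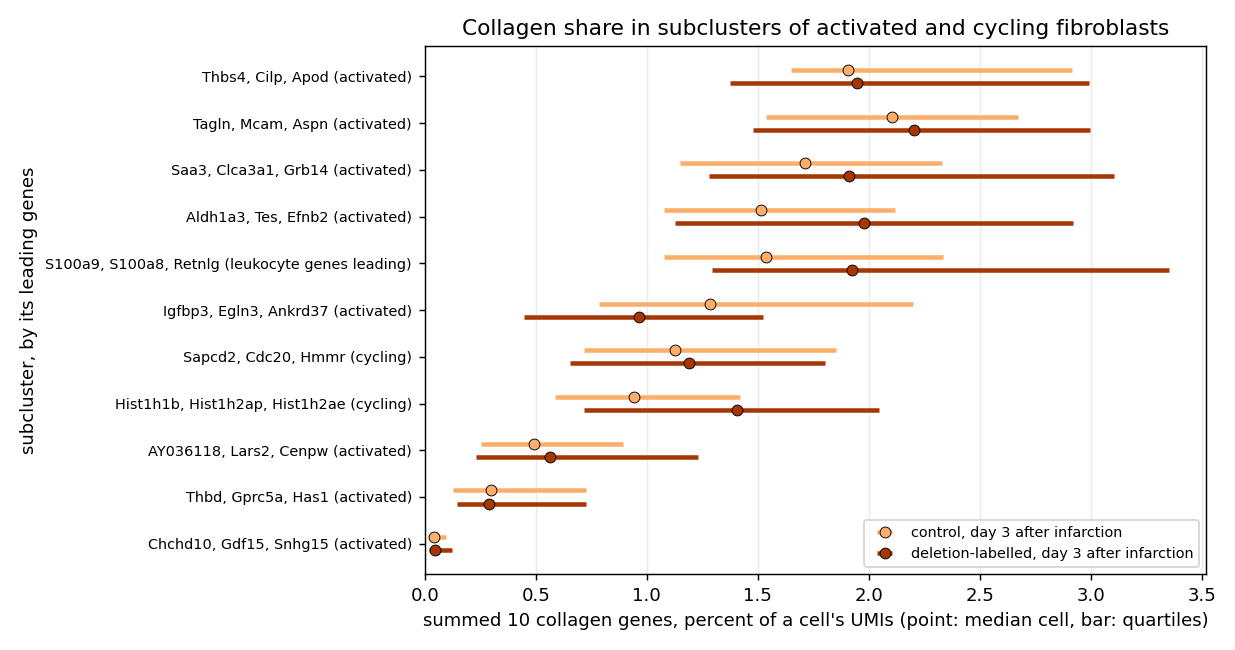
Percent of a cell's UMIs taken by the 10 collagen genes together in 11 subclusters of activated, cycling and leukocyte-led fibroblasts after infarction, with the median cell as a point and the quartiles as a bar for each genotype. Medians run from 2.10% and 2.21% in the subcluster led by Tagln down to 0.043% and 0.046% in the one led by Chchd10 and Gdf15.

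Fibroblasts with under 0.1% of their UMIs in these 10 genes were almost absent without infarction, at 1 of 1879 and 3 of 1984 cells. After infarction they were 78 of 920 (8.48%, 6.76 to 10.5) in the control and 64 of 1391 (4.601%, 3.56 to 5.84) in the deletion-labelled library. Most lay in the subcluster led by Chchd10 and Gdf15, where they were 59 of 76 and 33 of 49 cells. That subcluster carried Dcn at 1252 and 1592 and Pdgfra at 156 and 121 CPM, at a median depth of 11736 and 12984 UMIs. Its fibroblast markers together summed to 2551 and 4094 CPM, the lowest of the 11 subclusters in each library. Lum was lowest there too, at 102 and 96.2 CPM, against 310 and 764 in all fibroblasts of these libraries. Whether all cells of this subcluster are fibroblasts was not tested. Col3a1 was higher in the deletion-labelled library in 9 of the 11 subclusters, with log2 differences from -0.10 to 1.68, whereas the other 9 genes were higher in 5 to 8 of them.

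The make-up of the collagen transcripts shifted with infarction. In ratios of UMIs, which do not depend on the library total, Col1a1 to Col1a2 was 0.740, 0.702, 0.896 and 0.833 in fibroblasts. It stayed at 0.688 in resident cells and 0.681 in adventitial cells of the infarcted deletion-labelled heart, and was 0.898 and 0.830 in activated cells. Col3a1 to Col1a1 was 2.07, 1.91, 1.168 and 1.62, the infarcted control being the lowest, and reached 2.83 in resident cells of the infarcted deletion-labelled heart. Col5a1 to Col5a2 was near 1 without infarction (0.988 and 0.934) and 0.546 and 0.606 after it. Col12a1 to Col14a1 moved the most, from 0.063 and 0.049 to 0.599 and 0.451. Col5a3 made up 4.58%, 4.37%, 1.43% and 1.30% of the UMIs of the 10 genes.

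Taken over all cells of a state, the chains varied far more together in activated than in resident fibroblasts. After thinning to 2000 UMIs, Pearson's r of Col1a1 with Col1a2 was 0.28 over 1492 resident cells of the uninjured control and 0.29 over 1599 of the deletion-labelled library. In activated cells it was 0.84 over 565 and 0.85 over 633 cells, and r of Col1a1 with Col3a1 was 0.80 and 0.81. Mean thinned Col1a1 was 2.93 and 3.02 UMIs in resident cells and 6.602 and 7.32 in activated cells, so the counting noise differed between the states too. The activated state also joined subclusters with unlike shares of collagen UMIs (control first). The median cell held 2.10% and 2.21% in the subcluster led by Tagln, and 0.043% and 0.046% in that led by Chchd10 and Gdf15. Cells with under 0.1% of UMIs in the collagen genes were 13.3% and 8.87% of activated cells, against 0% and 0.06% of uninjured resident cells. Whether the chains varied together inside a subcluster was not tested. Cells of 1 library are not replicates, and these values are descriptions.

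Across 12 sums of a fibroblast state in a library, log levels of Col1a1 followed Col1a2 (r = 0.98) and Col5a2 (0.93), and ran against Col14a1 (-0.62). Col5a3 ran against Col12a1 (-0.81), and Col14a1 followed Col16a1 (0.84). The sums share 4 libraries, so the points are not independent. The genes most like Col1a1 over these sums, out of 4737 ranked, included Maged1 (0.99) and the disulfide isomerase Txndc5 (0.98). For Col5a2 the first was P4hb (0.98), a subunit of prolyl 4-hydroxylase, for Col12a1 Anxa2 (0.97), for Col14a1 Sox9 (0.96) and for Col8a1 Hhipl1 (0.93), with the matricellular gene Ccn2 at 0.91. Over 37 sums of all classes and 7579 genes, the level of the 10 genes together was most like Adamts2 (0.98), the procollagen N-proteinase, and Bgn and Loxl1 followed at 0.97. Col5a3 was most like Col6a1 (0.97) and the transcription factor gene Tbx20 (0.97). Among the 5 genes most like Col12a1 were Has2 (0.95), a hyaluronan synthase, and eGFP (0.94), a reporter sequence in the feature list.

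The other genes of fibril assembly are given from 7 lists, to be read against the 25.7% of all genes higher and 40.1% lower in the control and the 21.2% and 32.7% in the deletion-labelled pair. Of 29 genes that trim, hydroxylate, fold or cross-link procollagen, 15 were called higher and 5 lower in control fibroblasts after infarction, and 16 and 2 of 28 in the deletion-labelled pair. Lox, which cross-links fibrils, went from 45.4 to 528 and from 17.4 to 548 CPM, and P4ha3, a prolyl hydroxylase subunit, from 0.63 to 41.4 and from 0.61 to 38.4. The 20 fibril-binding proteoglycans and glycoproteins were more often lower, with 5 higher, a share like that of all genes, and 13 lower of 19 in the control and 5 and 12 of 20 in the deletion-labelled pair. Tnxb, a tenascin of fibril spacing, was 1029 and then 15.7 in the control, while Cthrc1 went from 2.04 to 419. After infarction Tnxb was 167 in the deletion-labelled fibroblasts, 1 of 12 genes of that list called higher there than in the control, with 1 lower (Fmod), of 19. In that comparison 13.2% of all genes were higher and 4.69% lower, and the mixes of fibroblast states differed between the libraries.

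Of 5 other fibrillar collagens 3 were called higher and 1 lower in each genotype. Col11a1, a relative of the type V chains, went from 3.16 to 47.4 and from 7.50 to 69.4 CPM. Of 14 network, beaded and membrane collagens 2 were higher and 11 lower in the control, with 3 higher and 10 lower in the deletion-labelled pair and Col6a6 going from 166 to 1.73 in the control and from 137 to 26.2 in the deletion-labelled pair. Among 4 other fibril-associated collagens none was higher, and 2 and 1 were lower. Of 9 collagen receptors none was higher and 5 were lower in the control, among them Ddr2, a discoidin-domain receptor kinase, at 289 and then 88.5, and 1 was higher and 4 lower in the deletion-labelled pair. Collagenases and gelatinases were near the shares of all genes in the control. Of 6 such genes 2 were higher and 2 lower in the control, with 3 higher and 2 lower in the deletion-labelled pair. Mmp2 went from 711 to 51.4 and from 794 to 189. Mmp9 and Mmp8 were the higher ones in the control, and both are known from neutrophils. The 9 neutrophil markers, Mmp9 among them, summed to 391, 449, 630 and 504 CPM in these fibroblasts. The part of neutrophil RNA in the Mmp9 and Mmp8 values was not tested.

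Pericytes, the mural cells of capillaries, held the 10 genes at 2.20% to 220% of the fibroblast level of the same library. They numbered 180, 419, 69 and 144 cells, at median depths of 3778 to 10456 UMIs, and 12 fibroblast markers summed to 3529, 2274, 2875 and 3040 CPM in them. How far fibroblast RNA enters the pericyte values was not tested. Col5a3 stood at 389, 281, 446 and 410 CPM in pericytes, which was 92.1%, 73.1%, 220% and 188% of the fibroblast level of the same library. After infarction it was thus higher in pericytes than in fibroblasts, while the other 9 genes were below the fibroblast level in all 4 libraries. Col12a1 in the infarcted control was close to that level, at 106 CPM in pericytes (85.7 to 129) against 110 in fibroblasts. Col1a1 in pericytes was 15.2%, 8.78%, 19.0% and 29.0% of the fibroblast level.

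After infarction 7 of the 10 genes were called higher and 1 lower (Col8a1) in control pericytes, against 24.0% and 38.1% of genes, and 8 higher and none lower in the deletion-labelled pair, against 17.9% and 32.0%. Col1a1 went from 224 to 664 (log2 1.56, 1.31 to 1.83) and from 134 to 1038 (2.96, 2.77 to 3.15). Col12a1 was counted with 6 and then 98 UMIs in the control, and with 2 and then 75 in the deletion-labelled pair (log2 5.04, 3.72 to 8.70, with the 2 UMIs set to the floor of 3). The 10 genes together took 0.217%, 0.1703%, 0.363% and 0.479% of pericyte UMIs, and 0.1499%, 0.148%, 0.251% and 0.196% in the median cell. After infarction the deletion-labelled sum was thus the higher and its median cell the lower. Without infarction 4 of the 10 were called lower in deletion-labelled pericytes (Col1a1, Col5a2, Col16a1, Col8a1) and none higher, against 10.8% lower and 14.3% higher. Col8a1 was the farthest apart, at 133 against 30.9. After infarction Col1a1 (log2 0.65), Col1a2 (0.64) and Col3a1 (0.60) were called higher and Col12a1 (-1.15) lower in deletion-labelled pericytes, against 19.4% and 5.72% of genes. These calls are on sums, and the share in the median pericyte ran the other way. With smooth muscle cells added, the mural counts were 7 higher and 1 lower of 10 in the control after infarction (22.8% and 39.0% of genes) and 10 higher in the deletion-labelled pair (17.3% and 29.6%). Between genotypes 6 genes were lower in deletion-labelled mural cells without infarction (14.0% of genes higher, 14.8% lower) and 1 after it (19.2% and 5.59%). Without infarction smooth muscle cells were 9 of 189 mural cells in the control and 114 of 533 in the deletion-labelled library, so the mixes differed. Scaling by the median of gene ratios raised the mural differences by 0.35 and 0.15 log2.

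Smooth muscle cells reached 50 cells in 1 library, the uninjured deletion-labelled one, with 114. There Col1a2 stood at 288 CPM on 283 UMIs, while Col1a1 stood at 10.2 on 10 UMIs and Col3a1 at 28.5. The ratio of Col1a1 to Col1a2 was 0.035 (0.017 to 0.066), against 0.702 in fibroblasts and 0.404 in pericytes of that library.

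Outside fibroblasts and mural cells the 10 genes were compared in named classes of at least 50 cells. Cells in clusters left without a class name, 1163, 1684, 2167 and 1799 in the 4 libraries, were left out of this comparison. They were 14.0%, 16.6%, 23.7% and 19.1% of the kept cells. Smaller classes were not compared, and some held much collagen. The 10 genes took 0.785% and 1.03% of UMIs in 24 and 11 epicardial and mesothelial cells of the infarcted libraries, and 0.555% in 33 Schwann cells of the uninjured deletion-labelled library. In neutrophils, which do not make fibrillar collagen, the median over the 10 genes was 1.53%, 1.74% and 1.49% of the fibroblast level in the 3 libraries with at least 50 such cells, and single genes lay between 0.776% and 4.62% after infarction. B cells lay at 2.19%, 1.54%, 1.21% and 1.10%, and T and NK cells at 1.06%, 1.39%, 1.07% and 0.762%. Only 2 of 200 levels of a gene in such a class and library reached 10% of the fibroblast level, and both were Col14a1 in mononuclear phagocytes without infarction. With doublets kept 15 levels did.

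**Figure D5:**
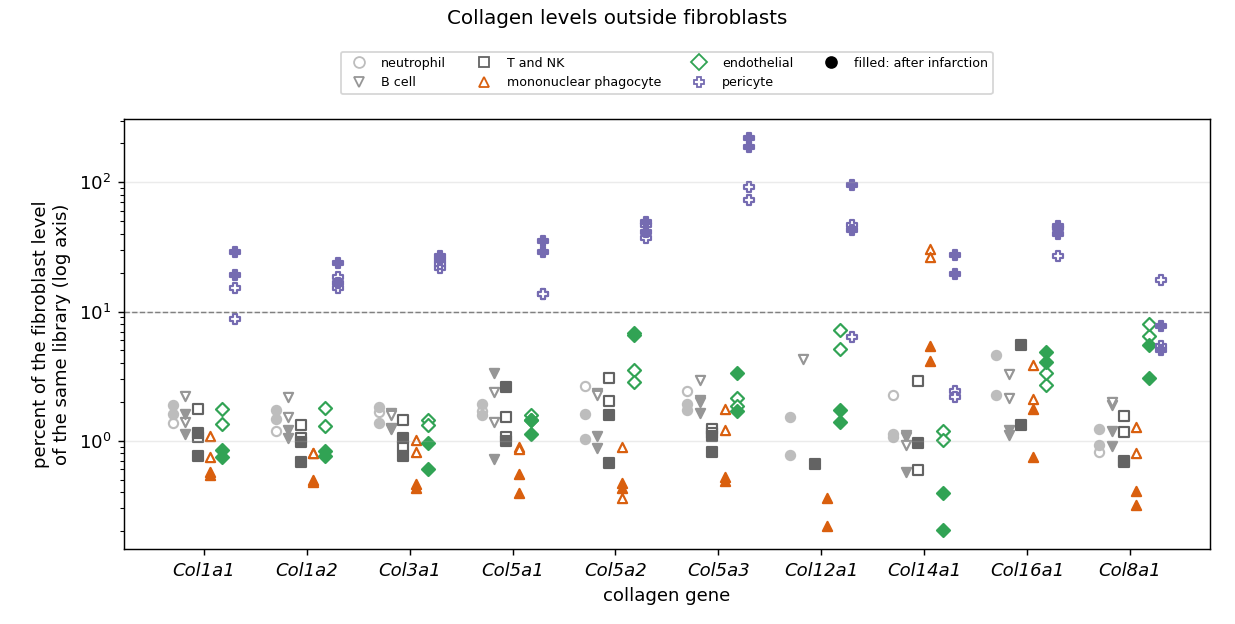
Level of each gene outside fibroblasts as a percent of the fibroblast level of the same library, on a log axis with a dashed line at 10%, by class, with open points for uninjured and filled points for infarcted libraries and levels of 0 not drawn. Pericyte points (purple) lie above every other class for 7 of the genes, with Col5a3 at 73.1% to 220%, and Col14a1 in uninjured mononuclear phagocytes (orange) at 30.2% and 26.4% stands apart from the other collagens of that class.

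Col14a1 stood at 88.7 and 81.2 CPM in uninjured mononuclear phagocytes, or 30.2% and 26.4% of the fibroblast level, where the median over the 10 genes in the same cells was 0.809% and 1.05%. After thinning, 13.5% and 11.4% of these cells held a Col14a1 UMI (34.8% and 36.4% unthinned, at median depths of 7747 and 10036), against 0.77% and 0.79% of endothelial cells (3771 and 5276). The UMIs lay mostly in 1 cluster led by Lilra5, Pla2g2d, Gpr34, Lyve1 and Timd4, genes known from tissue-resident macrophages, with 549 and 371 cells and Col14a1 at 90.01 and 87.6. After infarction the class held 10.0 and 10.2, and it was then made up of other clusters. The cluster led by Ly6c2 and Chil3 held 2.75 and 4.11. Col1a1 in these phagocytes was 10.99, 16.6, 18.8 and 20.4, or 0.54% to 1.09% of the fibroblast level.

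In endothelium no gene reached 10% of the fibroblast level over the class, where the medians over the 10 genes were 1.96%, 1.65%, 1.42% and 1.43%. Col8a1 stood at 6.41%, 7.96%, 5.53% and 3.07%, and Col5a2 at 3.53%, 2.83%, 6.79% and 6.63%. Col8a1 was thus the highest by this share without infarction and Col5a2 after it. In the endothelial cluster led by Sema3g, Alox12 and Hey1 Col8a1 stood at 92.3 and 113 CPM without infarction and 123 in the infarcted deletion-labelled library, and in the cluster led by Vwf and Plvap at 103, 95.2 and 13.7. The cluster led by Aqp1 and Aplnr held 17.0 and 10.1 without infarction. In the Vwf and Plvap cluster Col5a2 stood at 81.2 and 63.5 without infarction and at 410 in the infarcted deletion-labelled library, the last on 210 UMIs of 66 cells. That is 42.2% of the fibroblast level there. These clusters held fewer than 50 cells in the infarcted control.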

How the data were processed

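Single-cell gene counts of 4 libraries were used as deposited: the authors' filtered matrices of UMI counts, made with Cell Ranger 5.0.1 on mm10, per the submitters' processing notes. Cells with at least 500 UMIs, 200 genes and at most 20% mitochondrial UMIs were kept. The cells with the highest Scrublet scores were removed as doublets, in a number set beforehand at 0.8% per 1000 barcodes (655, 1032, 812 and 898 cells). Then 2000 variable genes, 30 components and Leiden clustering (resolution 1) in scanpy 1.11.5 gave clusters of all libraries together. The clusters were named from marker lists that hold no member collagen, and some were left unnamed. Between 19 and 41 barcodes were shared by a pair of libraries. The kept cells numbered 8289, 10142, 9141 and 9431.

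UMIs were summed by class, state and library and divided by the sum's total. Counts got exact Poisson intervals, shares exact Clopper-Pearson intervals, and ratios the exact interval conditional on both counts (scipy 1.17.1). With 1 library a group there was no test. Genes with at least 10 UMIs in either sum were compared, and the script was tested on simulated counts. The members and lists were chosen with earlier results of these data known, and fibroblast states were defined as joint clusters, 1 of them clustered again, after the data were seen.

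All 10 members are named. From each list the text draws on the 2 highest and 2 lowest genes per comparison with at least 30 UMIs in either sum, and as most alike genes on the 5 with the highest r. Doublets kept, stricter cell limits, other clusterings, another scaling, the mean of per-cell levels and a 2-fold limit were tried as alternatives. Proteins were not used here. Fewer cells of a library in a state, or another mix of cells, cannot be told apart from the group, since each group is 1 library.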

Additional observations from a re-analysis of the deposited data

Results flagged for a closer look

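For 2 genes the infarction difference in fibroblasts had opposite signs in the genotypes. Col5a1 was lower after infarction in the control (log2 -0.17) and higher in the deletion-labelled pair (0.51), 0.69 apart. Col8a1 was -0.03 and 0.74, 0.77 apart. With 1 library in each group neither difference was tested, and with median-of-ratios scaling both control values were positive (0.18 and 0.32). Without infarction both genes stood lower in the deletion-labelled library (Col5a1 413 against 568 CPM, Col8a1 570 against 755), and after it higher (589 against 504 and 952 against 738). Col3a1 differed by 0.58 between the genotypes in the same measure, with the same sign in both.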

How the results depend on the processing

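No paired analysis was possible because there was 1 library per group, which also leaves no replicate to leave out. Of the counts under other settings 143 were within 1.5 times the main value and 12 were not. Of the log2 differences of single genes 360 stayed within their counting interval and 110 did not. The 360 include all values at the 2-fold limit, which changes only the calls and so repeats the main values. No called difference changed sign. Signs of differences under 1.5-fold turned for Col5a1 and Col8a1 in the control (to 0.18 and 0.32), for Col16a1 in the deletion-labelled pair (to 0.21) and, between genotypes after infarction, for Col1a1 (to -0.14), Col5a2 (-0.06), Col5a3 (-0.02) and Col12a1 (-0.19). At 2-fold in place of 1.5-fold, control fibroblasts had 2 genes higher and 1 lower after infarction, the deletion-labelled pair 3 higher and 0 lower, and control mural cells 3 higher. With median-of-ratios scaling 5 genes were higher and 1 lower in the control, and the deletion-labelled pair had 7 higher and 0 lower. With the mean of per-cell levels 1 was lower in the control, and 1 of the 5 chain ratios, in place of 2, moved by 1.5-fold in the deletion-labelled pair. With each library clustered alone 0 genes were lower in control mural cells, with doublets kept 15 levels of a gene outside fibroblasts and mural cells reached 10%, and with the 10 genes left out of clustering 2 genes, in place of 1, were lower in activated than in resident cells. The cause was not tested, and no share of all genes was computed for these counts. Genotype comparisons in fibroblasts gave 0 calls under every setting run, though the 2-fold limit could not have added any. Resident and adventitial cells were not separated at resolution 0.5, and resident cells were not found with libraries clustered alone, so state comparisons were not run there. Elsewhere the border between these states moved. In the infarcted deletion-labelled library 370 resident and 109 adventitial cells became 221 and 253 with the 10 genes left out of clustering. They became 248 and 226 at a mitochondrial limit of 10%, 192 and 300 at 1000 UMIs, and 270 and 110 with doublets kept. The levels given by state rest on the main border. With 1 library a group the spread between animals is not known.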
